A study of Homo sapiens with 16 samples.

Results

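Gene expression at baseline was compared between the HCC70 and MDA-MB-468 cell lines, both established from human breast cancers of the basal-like type, in cells that carried only a scrambled short hairpin RNA (shRNA). The comparison uses 6 of the 16 arrays of the study: 4 arrays of HCC70 with scrambled shRNA, labelled as set a (2 arrays) and set b (2 arrays), and 2 arrays of MDA-MB-468 with scrambled shRNA. Members were chosen by label, as every scrambled-control array of either line. All 6 samples were stably infected with virus and kept under puromycin selection, so none of them is an uninfected parental culture. The remaining arrays held cells with an shRNA against EZH2 (both lines), an shRNA against EED, the empty vector plKO Puro or an EZH2 cDNA vector named fip EZH2 (HCC70 only). The 4 arrays of cells with the EZH2 shRNA, 2 per line, are used here as a repeat of the line difference in other RNA samples. Each line is 1 patient-derived cell line, so a difference between them is a difference between these lines and not between types of tumour. The labels do not say whether duplicate arrays came from separate cultures, and p-values then measure only the spread between these samples, which may be technical.

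Basal-like breast cancers lack the hormone receptor programme of luminal cells and express keratins and cadherins of the basal layer of the mammary epithelium. Tumour lines drift apart through gains and losses of DNA. The retinoblastoma protein RB1 holds back entry into the cell cycle, and SMAD4 is the shared partner through which TGF-beta and BMP receptors reach their target genes. EGFR is a receptor tyrosine kinase that drives growth and is often abundant in basal-like lines. MDA-MB-468 has been described as carrying an amplified EGFR and as lacking SMAD4 and RB1. Copy number was not measured here. Interferons act through receptors, JAK kinases and a transcription factor complex that holds IRF9, which binds a short element in the promoters of its target genes.

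Signals are RMA values on the log2 scale, 1 per transcript cluster, which is a group of probes that report 1 transcript unit. A difference is the HCC70 mean minus the MDA-MB-468 mean in log2 units, given with its standard error, so that 1 unit is a doubling of signal. A signal of log2 6 was the floor for testing, and 16175 of 33297 clusters reached it on at least 2 of the 16 arrays. For a gene with one line under that floor the difference may be understated. Calls were made where the adjusted p fell under 0.05. Where the 4 HCC70 signals of a gene are listed, both of set a come before both of set b. Signals of different genes depend on their probes and are not set against each other.

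The lines differed in 6045 of the 16175 tested clusters (37.4%), 2427 higher in HCC70 (15%) and 3618 lower (22.4%). In every one of these 6045 clusters all 4 HCC70 arrays lay on one side of both MDA-MB-468 arrays. That separation alone was common, since 11691 clusters (72.3%) showed it, 33.8% with HCC70 above and 38.5% below. Calls of at least 2-fold numbered 2531 (15.6%), and 274 clusters were at least 4-fold higher (1.69%) and 322 at least 4-fold lower (1.99%) in HCC70. Counted once per gene, 4724 of 11145 genes were called (42.4%), of which 1981 were higher (17.8%) and 2743 lower (24.6%), and the median difference over all genes was -0.04. These shares are the background for every list below. Arrays of the same set correlated at r = 0.9916 to 0.9969 over the tested clusters. Set a correlated with set b at 0.9770 to 0.9795, and HCC70 with MDA-MB-468 at 0.8618 to 0.8797. Sets a and b themselves differed in 3677 clusters, so the set was treated as a source of error. MDA-MB-468 has 1 set only, and its spread between sets is assumed to match that of HCC70.

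Cells with the EZH2 shRNA repeated most of the difference. Of the 6045 calls, 5544 (91.7%) were called in the same direction between the 2 lines with the EZH2 shRNA, 18 were called in the opposite direction and 483 were not called there. Between the 2 lines with the EZH2 shRNA 10195 clusters were called (63%). Of these, 54.4% were called the same way in the scrambled controls. The fit for the EZH2 shRNA took its spread from all arrays of the study and did not count the spread between sets a and b as error. The 4 arrays with the EZH2 shRNA alone gave 7779 calls. The scrambled controls gave 11198 calls under the same kind of fit, against the 6045 reported. The 63% and 54.4% therefore set unlike tests side by side. Of the 596 calls of at least 4-fold, 592 were called in the same direction in cells with the EZH2 shRNA. The 2 line differences correlated at r = 0.895 over the tested clusters, a description only, as clusters share arrays. No array enters both differences.

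Both lines carried epithelial transcripts and the basal keratin KRT5, but not every basal marker. The basal markers DSG3 and SNAI2 had mean signals of 4.18 and 4.09 in MDA-MB-468, under the floor. On the brightest cluster of each, EPCAM, KRT7, KRT8, KRT18 and KRT19 had mean signals above log2 11 in both lines. A second cluster averaged 10.80 for EPCAM and 10.74 for KRT18 in HCC70. KRT5, a keratin of basal cells, averaged 12.99 in HCC70 and 12.67 in MDA-MB-468. Of 21 markers of blood, endothelial, liver, neural, melanocyte, muscle and fat cells with a cluster of their own, 19 stayed below the floor. Their summed log2 signal was 92.5 to 95.4 in the HCC70 arrays and 89.4 to 89.9 in the MDA-MB-468 arrays. The tested pair were CD68, a lysosomal protein of macrophages, at a difference of 1.55 ± 0.27 (adjusted p = 0.0042), and the muscle filament gene DES at 0.30 ± 0.14 (adjusted p = 0.142). The leucocyte marker PTPRC and the macrophage marker CD163 were among those below the floor. The part of such cells in any result was not tested, and in cultured cells fewer cells of a kind and less RNA per cell cannot be told apart.

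The largest difference in the panel of lost and amplified genes was in SMAD4. Its signals were 9.43, 9.52, 9.70 and 9.79 in HCC70, against 3.61 and 3.95 in MDA-MB-468. All HCC70 arrays were high and both MDA-MB-468 arrays lay under the floor. The difference was 5.83 ± 0.23 (adjusted p = 7.46e-06), a 57.0-fold difference in signal. RB1 gave 7.85, 7.99, 8.60 and 8.59 in HCC70, against 3.96 and 4.03 in MDA-MB-468. HCC70 set b was above set a, and both MDA-MB-468 arrays again lay under the floor. The difference was 4.26 ± 0.26 (adjusted p = 4.97e-05), or 19.2-fold. In cells with the EZH2 shRNA the line difference was 5.92 for SMAD4 and 4.19 for RB1.

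Genes beside RB1 and SMAD4 were examined next. Neighbours were the 5 nearest tested genes on each side in the annotation order. Around RB1 on chromosome 13, 8 of 10 neighbours were higher in HCC70 and 0 lower. Among them were LPAR6, a receptor for lysophosphatidic acid whose gene lies within an RB1 intron, at 1.90 ± 0.24, RCBTB2 at 1.91 ± 0.17 and CAB39L at 2.02 ± 0.26. Around SMAD4 on chromosome 18, 1 of 10 neighbours was higher and 2 lower, and the higher one was ELAC1, a tRNA-processing enzyme, at 1.98 ± 0.18. The difference between these 2 neighbourhoods was not tested.

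A second group of cell cycle inhibitors, on chromosome 9, was also higher in HCC70. CDKN2A encodes p16 and ARF, inhibitors of cyclin-dependent kinases and of MDM2. Its signals were 10.59, 10.57, 10.50 and 10.56 in HCC70, against 9.04 and 9.04 in MDA-MB-468. Every HCC70 array exceeded both MDA-MB-468 arrays, with a difference of 1.52 ± 0.12 (adjusted p = 0.000182). The adjacent inhibitor CDKN2B differed by 1.78 ± 0.20 (adjusted p = 0.000755), and MTAP, a methionine salvage enzyme often deleted together with CDKN2A, by 1.08 ± 0.18 (adjusted p = 0.00365). Of 10 tested neighbours of CDKN2A, 7 were higher and 0 lower in HCC70. The fatty acid elongation enzyme HACD4 differed by 2.79 ± 0.24 and the long non-coding RNA MIR31HG by 1.73 ± 0.18. CDKN1A, the p21 inhibitor of cyclin-dependent kinases, is not part of that chromosome 9 group. It gave 7.92, 7.76, 8.37 and 8.28 in HCC70, against 5.73 and 5.65 in MDA-MB-468. Again no array overlapped, with a difference of 2.39 ± 0.22 (adjusted p = 0.0003).

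Other genes with tumour-suppressor roles were lower in HCC70. TUSC3, a subunit of the oligosaccharyltransferase on chromosome 8 that is deleted in several cancers, had signals of 4.51, 4.49, 4.42 and 4.38 in HCC70, against 9.64 and 9.69 in MDA-MB-468. The HCC70 arrays lay under the floor and the MDA-MB-468 arrays well above it, with a difference of -5.22 ± 0.13 (adjusted p = 2.19e-06). Of its 10 tested neighbours 9 were lower in HCC70. SFRP1, a secreted WNT antagonist, gave 5.74, 5.59, 5.39 and 5.47 in HCC70, against 10.11 and 10.28 in MDA-MB-468. The pattern was the same, with a difference of -4.65 ± 0.18 (adjusted p = 7.30e-06). FBXW7, a ubiquitin ligase subunit that degrades cyclin E and MYC, differed by -1.31 ± 0.29 (adjusted p = 0.0111), PPP2R2A, a regulatory subunit of protein phosphatase 2A, by -1.17 ± 0.29 (adjusted p = 0.0169), and the DNA damage kinase ATM by -0.97 ± 0.20 (adjusted p = 0.00823). BRCA1, which acts in homologous recombination, differed by -0.88 ± 0.20 (adjusted p = 0.0137), and NF1, the neurofibromin gene, by -0.67 ± 0.21 (adjusted p = 0.0399). The NF1 call ended without MDA-MB-468 replicate 2 (adjusted p = 0.103), HCC70 set a replicate 1 (0.0608) or set a replicate 2 (0.0533). Over the whole tumour-suppressor list 13 of 48 tested genes were higher, 11 were lower and 24 did not pass. The list median was 0.10. STK11 (0.07, adjusted p = 0.708) and INPP4B (0.04, adjusted p = 0.874) did not pass.

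**Figure D1:**
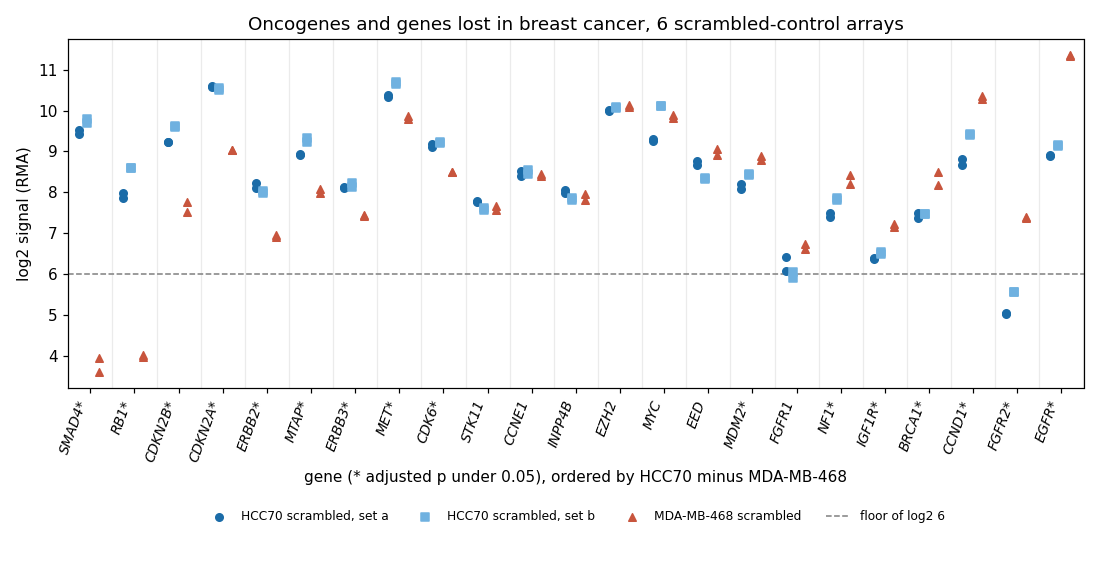
Log2 RMA signals of the tested genes of the oncogene and loss panel, 1 point per scrambled-control array (HCC70 set a, HCC70 set b, then MDA-MB-468), ordered by HCC70 minus MDA-MB-468. An asterisk marks an adjusted p under 0.05 and the dashed line the floor of log2 6. SMAD4 and RB1 sit at the left with both MDA-MB-468 arrays under the floor, and EGFR is among the genes with MDA-MB-468 above.

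Among growth factor receptors EGFR was lower in HCC70, whereas several other receptors were higher. EGFR had signals of 8.91, 8.88, 9.13 and 9.15 in HCC70, against 11.34 and 11.37 in MDA-MB-468. The arrays did not overlap, with both MDA-MB-468 arrays above all of HCC70. The difference was -2.33 ± 0.14 (adjusted p = 5.18e-05), a 5.04-fold lower signal in HCC70. The insulin receptor INSR gave 5.02, 4.70, 4.87 and 4.70 in HCC70, against 7.19 and 7.31 in MDA-MB-468. It too was lower in HCC70, with a difference of -2.43 ± 0.22. FGFR2, a fibroblast growth factor receptor, differed by -2.08 ± 0.21 (adjusted p = 0.000431), IGF1R by -0.74 ± 0.13 (adjusted p = 0.00527) and the VEGF receptor KDR by -2.07 ± 0.21 (adjusted p = 0.000435).

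Receptors higher in HCC70 included KIT, the stem cell factor receptor that marks luminal progenitor cells. KIT had signals of 6.26, 6.37, 7.04 and 7.16 in HCC70, against 4.001 and 4.21 in MDA-MB-468. HCC70 lay just above the floor and MDA-MB-468 under it, with a difference of 2.61 ± 0.31 (adjusted p = 0.000884). In cells with the EZH2 shRNA the KIT difference was 0.46, and the change between the 2 line differences passed its own test (-2.14 ± 0.17, adjusted p = 2.50e-05), which 14.2% of all genes passed. The change was -1.75 against set a alone and -2.53 against set b alone. The ephrin receptor EPHA2 differed by 1.42 ± 0.39 (adjusted p = 0.0255), which no longer passed without MDA-MB-468 replicate 2 (adjusted p = 0.0567). ERBB2 differed by 1.16 ± 0.15 (adjusted p = 0.00119), its kinase-impaired partner ERBB3 by 0.71 ± 0.13 (adjusted p = 0.00492) and the hepatocyte growth factor receptor MET by 0.69 ± 0.16 (adjusted p = 0.0147). Of 24 tested receptor tyrosine kinases 9 were higher and 7 lower in HCC70, with a median of 0.13. FGFR1 did not pass (-0.56, adjusted p = 0.109).

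Ligands and feedback genes of EGFR were called in both directions. EPGN, an EGFR ligand also called epigen, was higher in HCC70 (3.29 ± 0.43). GRB14, an adaptor that inhibits insulin receptor signalling, was lower (-2.20 ± 0.20), as was LRIG1, a negative regulator of EGFR (-1.08 ± 0.13), and CBL, the ubiquitin ligase that sends EGFR for degradation (-0.85 ± 0.18). In all, 2 of 25 were higher and 7 lower. The count of higher genes was 1 without MDA-MB-468 replicate 2 or HCC70 set a replicate 1, and the count of lower genes was 4 without MDA-MB-468 replicate 1. The ERK-induced genes DUSP6 (-0.16, adjusted p = 0.799) and SPRY2 (0.69, adjusted p = 0.148) did not pass.

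The genes around EGFR on chromosome 7 were lower in HCC70 as well, with 6 of 10 tested neighbours lower and 0 higher. Among them LANCL2 differed by -2.83 ± 0.25, the mitochondrial ribosomal protein gene MRPS17 by -1.39 ± 0.16 and the zinc finger gene ZNF713 by -3.36 ± 0.22. Around CCND1 on chromosome 11, 5 of 10 were lower and 0 higher. That is near the share of the whole chromosome, where 43.4% of 664 tested genes were lower and 7.08% higher. CCND1 encodes cyclin D1, and its signals were 8.67, 8.82, 9.42 and 9.39 in HCC70, against 10.35 and 10.27 in MDA-MB-468. It was lower in every HCC70 array, with a difference of -1.24 ± 0.26 (adjusted p = 0.00878), and its neighbour MYEOV differed by -3.06 ± 0.20. MYC, a transcription factor that drives growth, gave 9.31, 9.26, 10.11 and 10.12 in HCC70, against 9.82 and 9.89 in MDA-MB-468. Its arrays overlapped and the difference was -0.16 ± 0.29 (adjusted p = 0.699), although 9 of its 10 neighbours on chromosome 8 were higher in HCC70. With set b alone the MYC difference was 0.26 at an adjusted p of 0.022.

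**Figure D2:**
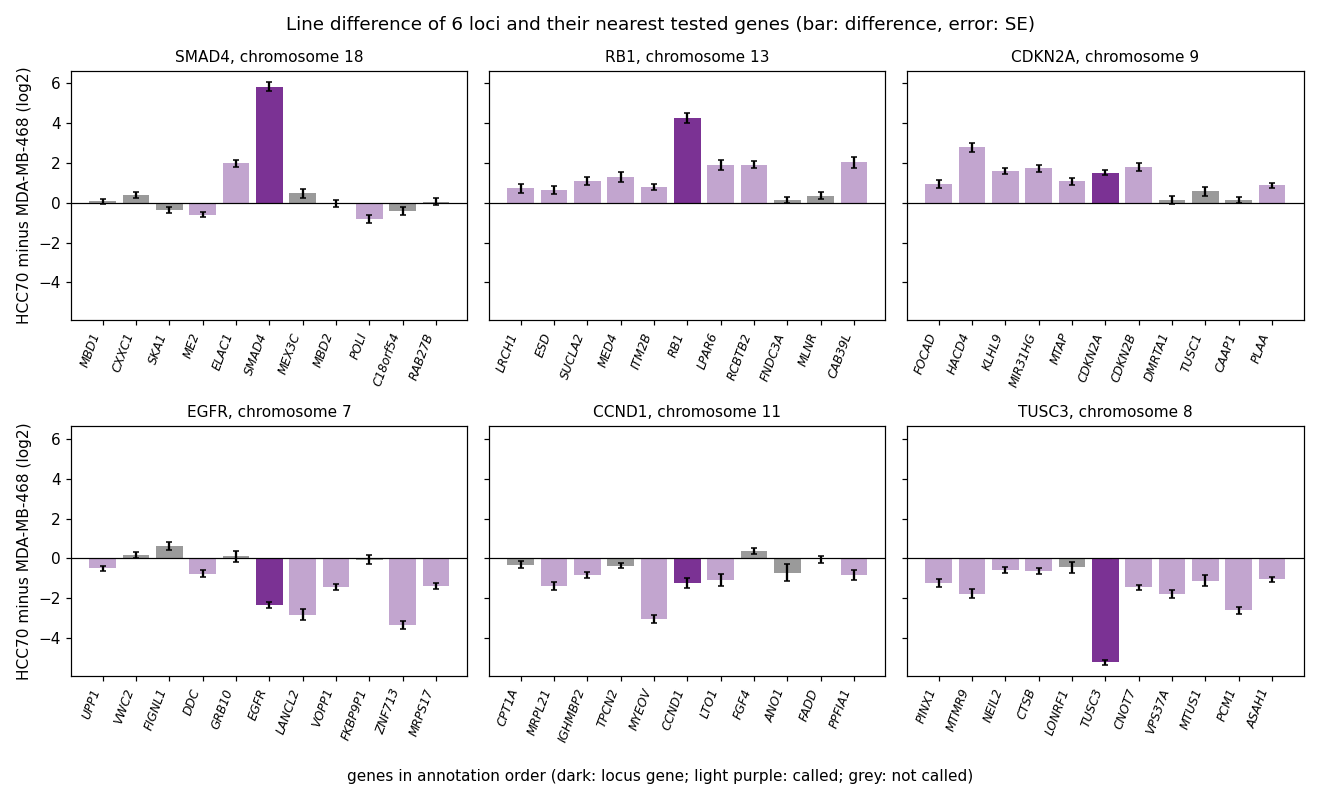
Difference in log2 signal, HCC70 minus MDA-MB-468 (bars, with the standard error), for 6 loci and their 5 nearest tested genes on each side in annotation order, with the locus gene dark, called neighbours light purple and the rest grey. Of 10 neighbours each, 8 of RB1 and 7 of CDKN2A are called higher in HCC70, and 6 of EGFR, 5 of CCND1 and 9 of TUSC3 are called lower. The CCND1 count is near the share of chromosome 11 as a whole, where 43.4% of tested genes are called lower.

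Calls on the oncogene list ran in both directions. Of 36 tested genes 8 were higher, 9 lower and 19 did not pass, with a median of 0.04. Without MDA-MB-468 replicate 2 the counts were 4 higher and 5 lower. LYN, a SRC-family kinase, differed by 2.41 ± 0.24 (adjusted p = 0.000414), and NOTCH1, a receptor that sets cell fate, by 1.34 ± 0.21 (adjusted p = 0.00271). MDM2, a ubiquitin ligase, differed by -0.55 ± 0.17 (adjusted p = 0.0365). That call ended without MDA-MB-468 replicate 1 (adjusted p = 0.0622) or replicate 2 (0.107), with the HCC70 empty vector arrays added (0.161) and with quantile normalization (0.0577). The mitotic kinase AURKA differed by -1.13 ± 0.13 (adjusted p = 0.000822). CCNE1 (0.06, adjusted p = 0.772) did not pass. In each direction taken alone, the shares of calls in the oncogene, tumour suppressor, RB and E2F, PI3K, and Notch and WNT lists were within 10 percentage points of those over all genes.

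Genes of the RB and E2F pathway were called in equal numbers in each direction, 12 higher and 12 lower of 45, with a median of -0.12. The higher ones, beside RB1 and the inhibitors above, included CDKN1B, the p27 inhibitor (0.87 ± 0.14), the replication helicase subunits MCM2 (1.12 ± 0.13) and MCM5 (0.82 ± 0.13), and the kinase CDK6 (0.68 ± 0.13). The lower ones included E2F5, a repressor-type E2F (-1.66 ± 0.21), the spindle checkpoint kinase BUB1 (-1.28 ± 0.14), thymidylate synthase TYMS (-1.13 ± 0.13), topoisomerase TOP2A (-1.08 ± 0.15) and CDK1 (-0.76 ± 0.18). E2F1 (0.34, adjusted p = 0.131) and the proliferation marker MKI67 (-0.35, adjusted p = 0.104) did not pass.

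Genes of the TGF-beta and BMP pathway were higher in HCC70 more often than lower, 15 against 6 of 39 tested, with a median of 0.40. The ID proteins, inhibitors of helix-loop-helix factors and targets of BMP signalling, were all higher. ID1 had signals of 10.94, 10.80, 10.74 and 10.76 in HCC70, against 8.21 and 8.12 in MDA-MB-468. No array overlapped, and the difference was 2.64 ± 0.15 (adjusted p = 3.60e-05). ID3 differed by 1.67 ± 0.15 (adjusted p = 0.000251), ID2 by 1.45 ± 0.16 (adjusted p = 0.000667) and ID4 by 1.02 ± 0.22 (adjusted p = 0.0105). TGFBI, an extracellular matrix protein, stood at 2.09 ± 0.16 and the inhibitory SMAD7 at 0.83 ± 0.14. The BMP decoy receptor BAMBI stood at 0.87 ± 0.20.

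Ligands and receptors of the pathway were called in both directions. The ligand TGFB3 was higher in HCC70 (2.02 ± 0.24) and TGFB1 lower (-1.46 ± 0.23). The co-receptor TGFBR3 had signals of 4.26, 4.28, 4.01 and 4.13 in HCC70, against 6.33 and 6.54 in MDA-MB-468. It was lower in HCC70, with a difference of -2.26 ± 0.18, and the kinase receptor TGFBR1 was lower (-0.997 ± 0.16). TGFBR2 (-0.01, adjusted p = 0.964), SMAD2 (0.19, adjusted p = 0.447) and SMAD3 (0.63, adjusted p = 0.0843) did not pass. FSTL1, a secreted binder of BMP ligands, gave 10.52, 10.49, 10.62 and 10.57 in HCC70, against 5.22 and 5.05 in MDA-MB-468. MDA-MB-468 lay under the floor, with a difference of 5.41 ± 0.15 (adjusted p = 2.92e-06).

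In the PI3K pathway, which carries growth factor signals to AKT and mTOR, 7 of 28 genes were higher and 6 lower (median 0.11). Without MDA-MB-468 replicate 1 there were 4 higher, and without replicate 2 there were 4 higher and 3 lower. The adaptor GAB2 gave 4.38, 4.43, 4.26 and 4.55 in HCC70, against 6.77 and 6.92 in MDA-MB-468. Both HCC70 sets were lower, and the difference was -2.44 ± 0.20 (adjusted p = 0.000182). The ribosomal S6 kinase RPS6KB1 was lower (-0.86 ± 0.21). The transcription factor FOXO1 was higher by 0.91 ± 0.25 and the catalytic subunit PIK3CD by 0.90 ± 0.17.

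Lineage genes separated the lines in part. Of 19 tested genes of the lineage panel, 6 were higher in HCC70 (CDH3, KIT, CDH1, KRT14, FOXA1 and GATA3), 3 were lower (CRYAB, KRT18 and EPCAM) and 10 did not pass. CDH1, the E-cadherin of epithelial junctions, had signals of 11.53, 11.46, 11.76 and 11.75 in HCC70, against 9.53 and 9.60 in MDA-MB-468. Both MDA-MB-468 arrays were low, and the difference was 2.06 ± 0.15 (adjusted p = 0.000118). CDH3, the P-cadherin of basal mammary cells, gave 11.58, 11.55, 11.51 and 11.44 in HCC70, against 8.68 and 8.75 in MDA-MB-468. Its arrays were further apart, with a difference of 2.80 ± 0.13 (adjusted p = 1.61e-05). KRT14, a basal keratin, gave 10.19, 10.15, 9.50 and 9.36 in HCC70, against 8.70 and 8.72 in MDA-MB-468. It was higher in set a than in set b, and the difference was 1.09 ± 0.27 (adjusted p = 0.0189).

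The luminal keratin KRT18 and the epithelial adhesion molecule EPCAM were lower in HCC70 by small amounts. KRT18 had signals of 11.85, 11.76, 11.86 and 11.89 in HCC70, against 12.66 and 12.58 in MDA-MB-468. The 2 lines did not overlap, with a difference of -0.78 ± 0.13 (adjusted p = 0.00416), and EPCAM differed by -0.63 ± 0.14 (adjusted p = 0.0104). A second cluster of each gene was also lower, by -0.59 ± 0.12 for KRT18 and -0.56 ± 0.12 for EPCAM. KRT18 has processed copies elsewhere in the genome, and whether its cluster reports one of them was not tested. CRYAB, a small heat shock protein of basal-like tumours, gave 7.27, 7.07, 7.61 and 7.42 in HCC70, against 8.82 and 8.81 in MDA-MB-468. The difference was -1.47 ± 0.21 (adjusted p = 0.00177). The luminal transcription factors FOXA1 (0.85, adjusted p = 0.0114) and GATA3 (0.50, adjusted p = 0.042) were higher in HCC70. The GATA3 call ended without MDA-MB-468 replicate 1 (adjusted p = 0.101), HCC70 set a replicate 1 (0.0630) or set a replicate 2 (0.0501), and with median centring (0.0622). KRT5 (0.32, adjusted p = 0.137), KRT8 (-0.23, adjusted p = 0.193), KRT19 (-0.07, adjusted p = 0.686), KRT7 (0.20, adjusted p = 0.267), KRT15 (-0.10, adjusted p = 0.705), SOX10 (0.27, adjusted p = 0.311), CAV1 (-0.68, adjusted p = 0.0594) and PROM1 (0.38, adjusted p = 0.383) did not pass.

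Some lineage genes were set apart by the HCC70 set. VIM, the mesenchymal filament vimentin, had signals of 7.83, 7.87, 9.26 and 9.26 in HCC70, against 7.13 and 7.25 in MDA-MB-468. All HCC70 arrays were above both MDA-MB-468 arrays, but set b exceeded set a by more than set a exceeded MDA-MB-468, and the difference was 1.36 ± 0.47 (adjusted p = 0.0567). ALDH1A3, an aldehyde dehydrogenase of luminal progenitors, gave 10.13, 10.19, 11.08 and 11.14 in HCC70, against 11.17 and 11.06 in MDA-MB-468. Set a was low and set b level with MDA-MB-468, and the difference was -0.48 ± 0.34 (adjusted p = 0.289). A second ALDH1A3 cluster differed in the other direction, by 1.60 ± 0.24. KRT6A, KRT6B and FOXC1 had no cluster of their own and were not analysed here, and CDH2 stayed below the floor.

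**Figure D3:**
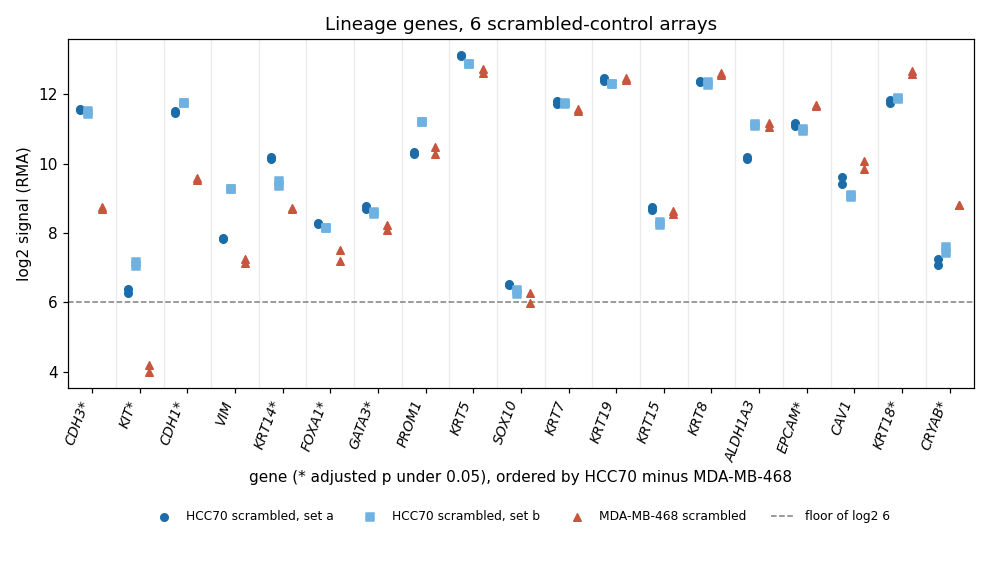
Log2 RMA signals of the 19 tested lineage panel genes on the 6 scrambled-control arrays, with HCC70 set a and set b left of MDA-MB-468 for each gene and genes ordered by HCC70 minus MDA-MB-468. An asterisk marks an adjusted p under 0.05, and for VIM and ALDH1A3 the gap between sets a and b is as large as the gap between lines or larger.

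The mature luminal, basal, mesenchymal and junction lists held more higher than lower calls. Of 15 mature luminal markers 8 were higher and 2 lower (median 0.39). CEACAM6, a cell surface glycoprotein of many carcinomas, gave 10.64, 10.50, 10.72 and 10.78 in HCC70, against 5.40 and 5.38 in MDA-MB-468. MDA-MB-468 lay under the floor, with a difference of 5.27 ± 0.15 (adjusted p = 2.95e-06). AGR2, a protein disulfide isomerase of secretory cells, was higher by 2.28 ± 0.21 and the mucin MUC1 by 2.02 ± 0.18. SPDEF, an epithelial ETS factor of secretory cells, gave 5.85, 6.01, 5.96 and 5.98 in HCC70, against 9.15 and 9.13 in MDA-MB-468. HCC70 had the lower signal on every array, with a difference of -3.19 ± 0.14 (adjusted p = 1.29e-05).

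Among basal and myoepithelial markers 10 of 21 were higher and 4 lower (median 0.32). DSG3, a desmoglein of stratified epithelium, had signals of 9.45, 9.48, 8.86 and 9.05 in HCC70, against 4.39 and 3.97 in MDA-MB-468. The MDA-MB-468 arrays lay under the floor and the difference was 5.03 ± 0.30 (adjusted p = 4.97e-05). SNAI2, the transcription factor Slug that acts in mammary basal cells, gave 8.46, 8.25, 8.89 and 8.90 in HCC70, against 4.01 and 4.17 in MDA-MB-468. It followed the same pattern, with 4.53 ± 0.24 (adjusted p = 3.21e-05). The keratin KRT16 was higher by 2.45 ± 0.31 and laminin subunit LAMB3 by 1.57 ± 0.13. VGLL1, a TEAD cofactor abundant in basal-like tumours, gave 8.76, 8.77, 9.09 and 9.08 in HCC70, against 11.04 and 11.35 in MDA-MB-468. The HCC70 arrays were all lower, with a difference of -2.27 ± 0.21 (adjusted p = 0.000357). Lower signals were also found for S100A2 (-1.49 ± 0.29) and TRIM29 (-0.71 ± 0.16).

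Luminal progenitor markers gave 4 higher and 3 lower of 14 (median 0.09). The milk iron-binding protein LTF gave 6.42, 6.65, 9.03 and 9.22 in HCC70, against 5.04 and 4.22 in MDA-MB-468. Set b exceeded set a, and the difference was 3.20 ± 0.94 (adjusted p = 0.0326). Without MDA-MB-468 replicate 2 the LTF call ended (adjusted p = 0.0771) and 1 luminal progenitor marker was higher, and without HCC70 set b replicate 2 there were 2 higher. The ETS factor EHF was lower (-1.24 ± 0.20). Mesenchymal markers were higher for 6 and lower for 3 of 18 (median 0.56). The fibronectin receptor subunit ITGA5 was higher by 3.38 ± 0.20 and the matrix protein TNC by 2.15 ± 0.25. NT5E, the ectonucleotidase CD73, gave 5.54, 5.90, 5.63 and 5.56 in HCC70, against 10.89 and 10.84 in MDA-MB-468. Both MDA-MB-468 arrays exceeded all of HCC70, with a difference of -5.21 ± 0.22 (adjusted p = 9.10e-06). Lower signals were also found for S100A4 (-2.86 ± 0.21), and FN1 did not pass (-0.57, adjusted p = 0.495).

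Epithelial junction genes were higher for 13 and lower for 4 of 31 (median 0.29). The desmosomal plaque protein PKP1 gave 9.36, 9.23, 9.17 and 9.17 in HCC70, against 5.52 and 4.93 in MDA-MB-468. The arrays were far apart, with a difference of 4.003 ± 0.31 (adjusted p = 0.000159). The E-cadherin partner CTNNA1 was higher by 1.60 ± 0.15 and the desmoglein DSG2 by 1.38 ± 0.14. CLDN10, a tight junction claudin, gave 3.85, 3.68, 3.57 and 3.68 in HCC70, against 7.50 and 7.93 in MDA-MB-468. HCC70 had the lower signal on every array, with a difference of -4.02 ± 0.26 (adjusted p = 6.33e-05). The epithelial regulator GRHL2 (-0.25, adjusted p = 0.296) did not pass.

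Interferon response genes were higher in HCC70. Of 36 tested genes of the list 29 were higher and 0 lower, and 7 did not pass. The list median was 1.65, 1.38 with set a and 1.97 with set b, against -0.04 over all genes. In cells with the EZH2 shRNA 33 of the 36 were higher and 0 lower, where 32.8% of all genes were called higher and 34.7% lower (67.4% in all). The promoters of 3 of the members with the largest differences are given here, since a motif of the element bound by the IRF9 complex lies in each. They are RefSeq sequences on GRCh38.p14, from 250 bases before to 50 after the gene's start, read 5′ to 3′ along the gene's strand, with GAAANNGAAA on either strand in capitals; overlapping matches run together in BST2. The coordinates are chr1:78620198-78620497, plus strand for IFI44L, chr14:94110486-94110785, plus strand for IFI27 and chr19:17405581-17405880, minus strand for BST2.
IFI44L: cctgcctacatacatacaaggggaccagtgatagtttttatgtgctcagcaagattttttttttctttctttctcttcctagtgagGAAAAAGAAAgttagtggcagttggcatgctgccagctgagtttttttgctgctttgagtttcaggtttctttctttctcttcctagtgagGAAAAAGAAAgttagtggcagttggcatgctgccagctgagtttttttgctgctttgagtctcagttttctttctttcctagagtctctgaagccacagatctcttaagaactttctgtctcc
IFI27: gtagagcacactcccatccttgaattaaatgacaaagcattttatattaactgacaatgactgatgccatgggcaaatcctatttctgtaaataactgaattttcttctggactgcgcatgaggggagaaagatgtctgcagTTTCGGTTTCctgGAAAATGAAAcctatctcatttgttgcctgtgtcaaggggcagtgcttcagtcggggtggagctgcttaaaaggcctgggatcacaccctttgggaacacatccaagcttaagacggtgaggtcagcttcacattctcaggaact
BST2: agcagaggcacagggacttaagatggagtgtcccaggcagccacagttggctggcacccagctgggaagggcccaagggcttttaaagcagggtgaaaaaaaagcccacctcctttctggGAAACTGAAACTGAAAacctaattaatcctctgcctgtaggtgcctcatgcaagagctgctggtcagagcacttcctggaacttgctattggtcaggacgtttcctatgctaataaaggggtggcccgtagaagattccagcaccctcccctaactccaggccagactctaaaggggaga

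The motif GAAANNGAAA was found on either strand in 17 of 28 promoters of tested interferon list members that the RefSeq promoter table held (60.7%). It was in 15 of 24 promoters of members called higher (62.5%) and in 2 of 4 of members not called. Over all 27305 promoters of the same length 996 (3.65%) held it, and over 9080 promoters of genes with a tested cluster 249 (2.74%). A match is a description of the letters and not a binding site.

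IFI44L, an interferon-induced gene with antiviral activity, had signals of 9.12, 8.89, 10.002 and 9.93 in HCC70, against 3.79 and 3.87 in MDA-MB-468. Set b was above set a, and both were far above MDA-MB-468, which lay under the floor. The difference was 5.65 ± 0.35 (adjusted p = 5.67e-05). IFI27, a mitochondrial interferon-induced protein, gave 11.06, 11.03, 11.21 and 11.05 in HCC70, against 5.86 and 5.78 in MDA-MB-468. The HCC70 arrays lay close together, with a difference of 5.26 ± 0.15 (adjusted p = 2.95e-06). BST2, or tetherin, which holds budding virus at the membrane, gave 10.81, 10.79, 10.93 and 10.94 in HCC70, against 5.76 and 6.04 in MDA-MB-468. The difference was 4.97 ± 0.19 (adjusted p = 6.50e-06).

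Sensors and effectors of the antiviral state showed the same side. The RNA-binding IFIT1 had signals of 8.78, 8.66, 9.84 and 9.88 in HCC70, against 5.07 and 5.49 in MDA-MB-468. Its difference was 4.01 ± 0.44 (adjusted p = 0.000646), and IFIT2 differed by 4.003 ± 0.34. The GTPase MX1 differed by 2.09 ± 0.41, the oligoadenylate synthetases OAS1, OAS2 and OAS3 by 1.65 ± 0.20, 1.65 ± 0.38 and 1.65 ± 0.24, and the ubiquitin-like ISG15 by 1.501 ± 0.21. Of the transcription factors IRF9 was higher (2.04 ± 0.14), whereas IRF7 (0.15, adjusted p = 0.533) and IRF1 (-0.09, adjusted p = 0.862) did not pass. The RNA sensor IFIH1 (0.31, adjusted p = 0.427) and the conjugating enzyme UBE2L6 (-0.43, adjusted p = 0.103) did not pass. IFI16, a DNA sensor outside the list, was among the largest differences at 5.60 ± 0.16 (adjusted p = 2.92e-06).

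**Figure D4:**
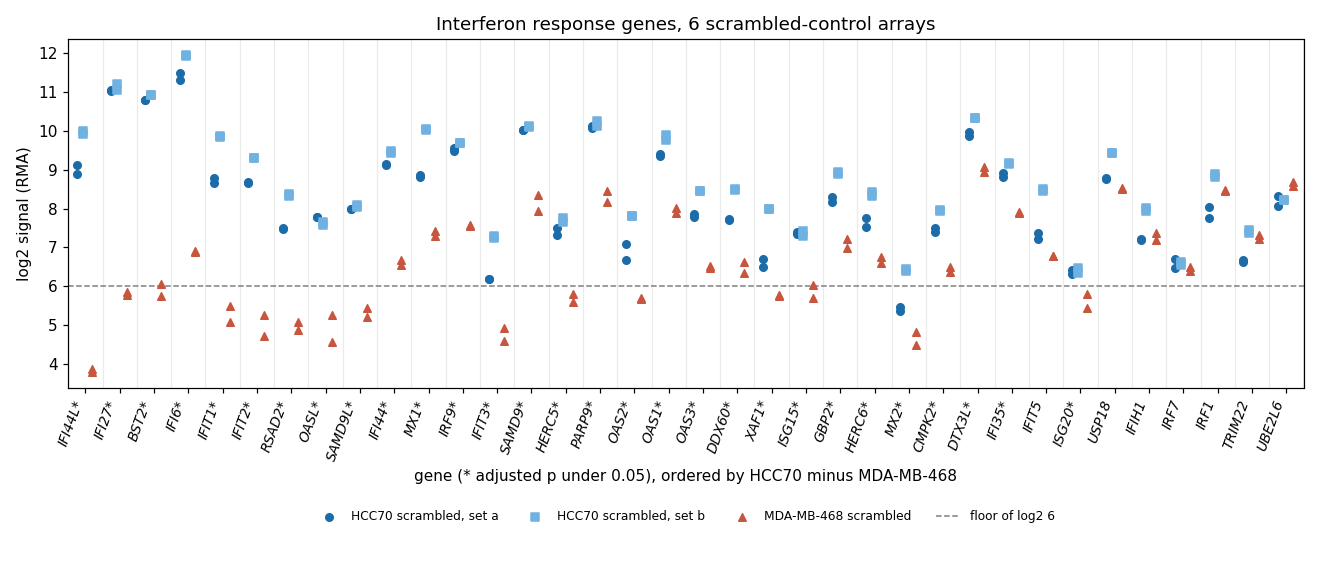
Log2 RMA signals of the 36 tested interferon response genes on the 6 scrambled-control arrays, with HCC70 set a and set b left of MDA-MB-468 for each gene and genes ordered by HCC70 minus MDA-MB-468. An asterisk marks an adjusted p under 0.05; 29 genes are called higher in HCC70 and 0 lower, and set b lies above set a for many of them.

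Antigen presentation genes were called higher in HCC70 for 12 and lower for 1 of 15, with a median of 1.003. The aminopeptidases of the endoplasmic reticulum that trim peptides went apart. ERAP2 gave 9.30, 9.11, 9.14 and 9.13 in HCC70, against 5.25 and 5.62 in MDA-MB-468. MDA-MB-468 was low, with a difference of 3.73 ± 0.23 (adjusted p = 5.72e-05). ERAP1 gave 7.29, 7.34, 7.82 and 7.85 in HCC70, against 9.17 and 9.34 in MDA-MB-468. The HCC70 arrays were all lower, with a difference of -1.68 ± 0.22 (adjusted p = 0.00138). The class I light chain B2M was higher by 1.18 ± 0.18, the peptide transporter subunits TAP1 and TAP2 by 1.03 ± 0.15 and 0.92 ± 0.18, and the class II peptide loader HLA-DMA by 2.51 ± 0.31. PSMB8 (0.30, adjusted p = 0.149) did not pass.

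Cytokines and chemokines were higher for 9 and lower for 4 of 28 (median 0.80). The prostaglandin synthase PTGS2 gave 7.38, 7.43, 8.26 and 8.18 in HCC70, against 4.31 and 4.42 in MDA-MB-468. The difference was 3.45 ± 0.29 (adjusted p = 0.000233). The monocyte chemokine CCL2 differed by 3.48 ± 0.69 (adjusted p = 0.00715) and the T cell chemokine CCL5 by 2.95 ± 0.31 (adjusted p = 0.000546). S100A7, the skin peptide psoriasin, gave 4.90, 4.81, 4.23 and 4.51 in HCC70, against 8.17 and 8.90 in MDA-MB-468. Both MDA-MB-468 arrays exceeded all of HCC70, with a difference of -3.93 ± 0.43 (adjusted p = 0.000625). Lower signals were also found for the macrophage growth factor CSF1 (-2.27 ± 0.20) and S100A8 (-2.13 ± 0.24). IL6 (1.60, adjusted p = 0.138) and CXCL8 (1.48, adjusted p = 0.202) did not pass.

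Apart from SMAD4, IFI44L, IFI27, FSTL1, IFI16 and CEACAM6, the 15 genes with the largest positive differences held several with known epithelial or metabolic roles. DMBT1, a secreted scavenger receptor of mucosal surfaces, gave 10.75, 10.60, 11.997 and 12.09 in HCC70, against 4.51 and 4.27 in MDA-MB-468. The difference was 6.97 ± 0.48 (adjusted p = 8.17e-05). TXNIP, which inhibits thioredoxin and glucose uptake, gave 11.45, 11.49, 10.56 and 10.48 in HCC70, against 4.61 and 4.53 in MDA-MB-468. MDA-MB-468 lay under the floor, with a difference of 6.43 ± 0.33 (adjusted p = 2.75e-05). TCN1, a vitamin B12-binding protein, gave 11.48, 11.40, 11.46 and 11.51 in HCC70, against 5.17 and 5.64 in MDA-MB-468. Its difference was 6.06 ± 0.26 (adjusted p = 9.92e-06).

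The others were FADS2, a fatty acid desaturase (5.55 ± 0.31), PLCXD3 (5.31 ± 0.19), the mucosal chemokine CXCL17 (5.26 ± 0.17), the guanylate-binding protein GBP6 (5.16 ± 0.34), the meiotic chromosome protein HORMAD1 (5.16 ± 0.18) and FYB1, an adaptor of T cells and platelets (5.07 ± 0.25). HORMAD1 had signals of 9.32, 9.36, 9.76 and 9.66 in HCC70, against 4.40 and 4.32 in MDA-MB-468. Both MDA-MB-468 arrays lay below the floor. All 15 were also higher in HCC70 between the lines with the EZH2 shRNA. The smallest of those repeats was 4.38 for CXCL17 and the largest 7.21 for TXNIP.

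Of the 15 genes with the largest negative differences, EPB41L2, a membrane skeleton protein, came first with 3.77, 3.62, 3.62 and 3.60 in HCC70, against 9.76 and 9.93 in MDA-MB-468. HCC70 lay under the floor on every array, with a difference of -6.19 ± 0.16 (adjusted p = 2.71e-06). CRISP3, a cysteine-rich secretory protein, gave 3.77, 3.84, 3.76 and 3.86 in HCC70, against 9.51 and 9.48 in MDA-MB-468. The difference was -5.69 ± 0.13 (adjusted p = 2.19e-06). ZFP42, the pluripotency-associated factor REX1, gave 3.88, 3.86, 3.96 and 3.89 in HCC70, against 9.20 and 9.58 in MDA-MB-468. The difference was -5.49 ± 0.22 (adjusted p = 8.06e-06).

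RWDD2B (-5.24 ± 0.24), the glutamate transporter SLC1A6 (-5.16 ± 0.17), the GABA receptor subunit GABRA3 (-5.09 ± 0.12), the protease inhibitor A2M (-4.86 ± 0.15), the parathyroid hormone receptor PTH2R (-4.84 ± 0.18) and kynureninase KYNU (-4.74 ± 0.12) followed, with the antisense RNA ZNF667-AS1 (-5.11 ± 0.26) and OLFML3 (-4.72 ± 0.15). SLFN11, a factor that blocks stressed replication forks and marks sensitivity to DNA-damaging drugs, gave 3.76, 3.93, 3.70 and 3.75 in HCC70, against 8.48 and 8.48 in MDA-MB-468. The arrays were far apart, with a difference of -4.70 ± 0.15 (adjusted p = 3.46e-06). ALDH3B2, an aldehyde dehydrogenase, differed by -4.69 ± 0.21. TUSC3 and NT5E, given above, complete the 15.

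Genes on in one line and off in the other were counted as those with all arrays of one line at log2 8 or above and all of the other under log2 6. There were 57 such genes on in HCC70 and 44 on in MDA-MB-468. The rule sets a wide gap on the same arrays, so the fact that all of them were called adds no further result. In cells with the EZH2 shRNA all were called in the same direction, and 50 and 33 of them met the same on and off limits. Those differences come from other arrays, but the spread behind the calls was estimated from all 16. Chromosome 16 held 7 of the 57 genes on in HCC70 and 548 of the 11145 tested genes. Chromosome 1 held 7 of the 57 as well, but 1189 of the tested genes. Of the 44 genes on in MDA-MB-468 chromosome 6 held 8, with 592 of the tested genes.

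Proteases and their inhibitors were called higher for 11 and lower for 9 of 32 (median 0.36). SERPINB5, the serpin maspin, gave 9.08, 9.06, 9.38 and 9.36 in HCC70, against 5.42 and 5.82 in MDA-MB-468. Its difference was 3.60 ± 0.25 (adjusted p = 8.22e-05). The adjacent and nearly identical serpins SERPINB3 and SERPINB4 differed by 4.34 ± 0.37 and 4.75 ± 0.29, and probes may not tell them apart. The membrane protease MMP14 was higher by 2.52 ± 0.14. The kallikrein KLK6 gave 6.65, 6.51, 6.51 and 6.46 in HCC70, against 8.92 and 8.95 in MDA-MB-468. HCC70 had the lower signal on every array, with a difference of -2.40 ± 0.14 (adjusted p = 4.71e-05). Lower signals were also found for the cystatin CST6 (-1.78 ± 0.14) and the metalloproteinase inhibitor TIMP3 (-2.17 ± 0.21). Without MDA-MB-468 replicate 2 the count of higher genes was 7.

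Detoxification and redox genes were lower for 10 and higher for 4 of 27 (median -0.22). The largest of the lower calls was ALDH3B2 (-4.69 ± 0.21), and most of the other lower genes are not named in this paragraph. GSTP1, a glutathione transferase, gave 11.69, 11.67, 11.76 and 11.77 in HCC70, against 9.61 and 9.61 in MDA-MB-468. It was higher in HCC70, by 2.11 ± 0.12 (adjusted p = 3.99e-05). CYP1A1, induced by the aryl hydrocarbon receptor, differed by 3.96 ± 0.64 (adjusted p = 0.00322). Its mean signal was 8.58 in HCC70 set a and 10.47 in set b, against 5.57 in MDA-MB-468. The aldo-keto reductases AKR1C3 (2.53 ± 0.19) and AKR1C2 (-2.52 ± 0.30) went apart, and their close sequence makes the split uncertain. The NRF2 target NQO1 (0.30, adjusted p = 0.137) did not pass. Without MDA-MB-468 replicate 2 the count of lower genes was 6.

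In the insulin-like growth factor axis 2 of 12 genes were higher and 4 lower (median -0.09). PAPPA, a protease that frees IGF from its binding proteins, was higher by 2.86 ± 0.34. IGFBP5, one of those binding proteins, gave 6.58, 6.65, 6.72 and 6.57 in HCC70, against 7.76 and 7.76 in MDA-MB-468. The HCC70 arrays were all lower, with a difference of -1.13 ± 0.14 (adjusted p = 0.00121). With the EZH2 shRNA its signals were 7.08 and 6.98 in HCC70 shEZH2 arrays, against 4.92 and 4.99 in MDA-MB-468 shEZH2 arrays. The order of the lines turned, with a difference of 2.07, and the change passed its own test (3.20 ± 0.13, adjusted p = 2.76e-07).

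Notch and WNT genes were called 7 higher and 9 lower of 34 (median 0.14). The Notch target HEY2 was higher by 2.41 ± 0.18, the ligand WNT11 by 1.93 ± 0.42, and the receptors FZD3 (-2.14 ± 0.24) and LGR4 (-1.90 ± 0.17) were lower. HOX genes, which set positional identity, were higher for 6 and lower for 0 of 12 (median 0.49). HOXB2 gave 7.92, 7.95, 7.45 and 7.55 in HCC70, against 5.63 and 5.48 in MDA-MB-468. No array overlapped, with a difference of 2.16 ± 0.20 (adjusted p = 0.000343), and HOXB6 differed by 1.52 ± 0.31. The count of higher HOX genes was 3 without MDA-MB-468 replicate 1 and 2 without replicate 2.

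Of Polycomb subunits 1 of 26 was higher and 4 were lower (median -0.08). EZH2, the methyltransferase that the study perturbed, gave 10.01, 9.998, 10.08 and 10.06 in HCC70, against 10.07 and 10.14 in MDA-MB-468. The arrays overlapped and the difference was -0.07 ± 0.12 (adjusted p = 0.681), and EED differed by -0.46 ± 0.19 (adjusted p = 0.0982). The third core subunit SUZ12 was lower (-0.65 ± 0.20), which no longer passed without MDA-MB-468 replicate 2 (adjusted p = 0.0823) or HCC70 set a replicate 1 (0.0618). The PRC1 subunit PCGF5 was lower (-2.11 ± 0.26), and CBX6 was higher by 1.14 ± 0.13. Without MDA-MB-468 replicate 2 there were 2 higher and 2 lower, and without HCC70 set b replicate 1 there were 2 higher. Of 26 genes of the cancer-testis list with a cluster of their own, 20 stayed below the floor. Of the 6 tested, PRAME was higher (4.53 ± 0.18) and IGF2BP3 lower (-1.18 ± 0.14). These counts cover the genes of this list only. Without MDA-MB-468 replicate 1 there were 2 higher.

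Calls were uneven along the genome. On chromosome 16, 239 of 548 tested genes were higher in HCC70 and 23 lower, with a median of 0.48. Chromosomes 14 (106 higher and 32 lower of 347) and 9 (125 and 37 of 460) leaned the same way. So did chromosomes 3 (171 and 75 of 622) and 22 (63 and 25 of 290). On chromosome 21, 6 of 121 were higher and 63 lower, with a median of -0.63. Chromosomes 6 (45 higher and 262 lower of 592), 11 (47 and 288 of 664), 2 (63 and 285 of 728) and 5 (71 and 194 of 476) leaned toward lower calls in HCC70. Leans of further chromosomes, in either direction, are not listed. The background over all genes was 17.8% higher and 24.6% lower. In cells with the EZH2 shRNA the medians of chromosomes 16 and 21 were 0.43 and -0.65.

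**Figure D5:**
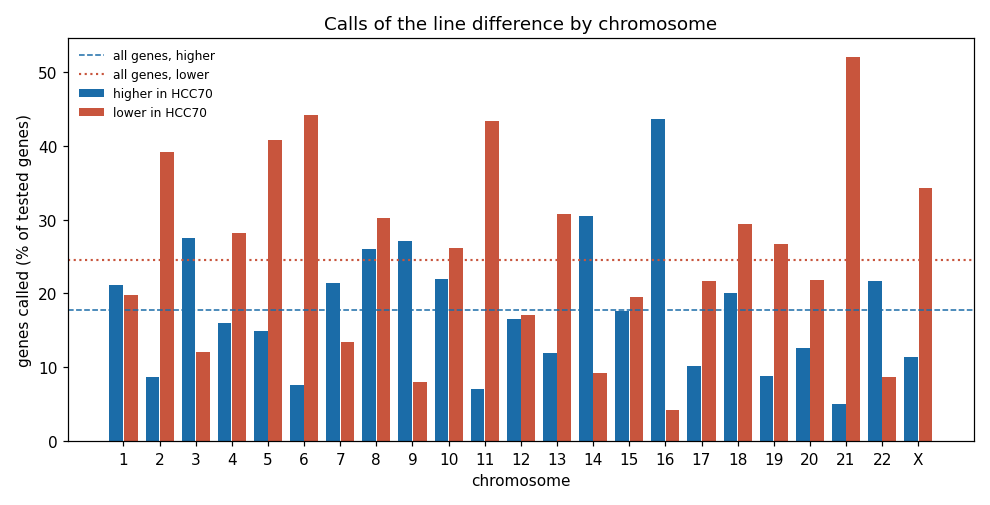
Percent of tested genes per chromosome called higher (left bar) and lower (right bar) in HCC70 than in MDA-MB-468, from 1 cluster per gene. The dashed and dotted lines give the shares over all genes, 17.8% and 24.6%; chromosome 16 has the highest share of higher calls and chromosome 21 the highest share of lower calls.

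Values just at the limits show how near some genes came to them. At the floor, PITX1-AS1 lay just inside and CDIP1 just outside, with a second-highest array of about log2 6 in both. For the separation of arrays, AMBRA1 lay just inside and LCE3A just outside, with gaps of nearly 0.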

How the data were processed

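Total RNA of HCC70 and MDA-MB-468 cells was labelled and hybridised to Affymetrix Human Gene 1.0 ST arrays. The deposited log2 signals, 1 per transcript cluster and array, were made by the authors with RMA in Affymetrix Expression Console, per the submitters' processing notes, and RMA was not repeated here. RMA normalizes between arrays and compresses differences of dim clusters. Software versions and cluster build were not given in the sources used here. Array medians ran from 5.37 to 5.46 over the 6 arrays, and the number of arrays limits the precision. Batches other than the labelled sets were not tested, for want of scan dates.

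Gene symbols came from the platform annotation: 19460 of 33297 clusters had 1 symbol, 1754 several and 12083 none. A RefSeq gene table (GRCh38.p14) gave names, chromosomes and gene order, and matched 19429 clusters by Entrez identifier, with 0 symbols updated. A gene was represented by its single-symbol cluster with the highest mean over the 16 arrays, which gave 11145 genes. Clusters with at least 2 of 16 arrays at log2 6 or above were tested.

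The line difference was fitted to the 6 arrays with limma 3.58.1 in R 4.3.3 (lmFit and eBayes, two-sided), with 2 line means and the set (a, b or MDA-MB-468) as a random block by duplicateCorrelation (consensus correlation 0.635, 4 residual and 3.28 prior degrees of freedom). The Benjamini-Hochberg adjustment ran over 16175 clusters. The fit was tested on simulated data drawn with the same block structure and the same set spread in both lines. Such data could not test whether those assumptions hold here. The consensus correlation rests on few sets, so the p-values may be too small. The line difference of cells with the EZH2 shRNA, and its change from the scrambled controls, were contrasts of 8 group means fitted to all 16 arrays, which do not count the spread between sets a and b as error.

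Named genes were, by rule, the 15 largest called differences in each direction, a lineage panel, an oncogene and loss panel, up to 4 called members per direction of each of 23 gene lists, on-off genes and neighbours of chosen loci. List members that did not pass, and a few further called members, were named after their values were seen. Some panel genes are not reported here. The members, panels and lists were chosen with earlier results of these data known. Replicate numbers did not pair samples: the correlations of their deviations were -0.04, -0.01 and -0.07 between sets. Alternatives covered the floor, the block, the HCC70 set, the scaling, the prior and leaving out each array.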

Additional observations from a re-analysis of the deposited data

Results flagged for a closer look

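Among the 4 HCC70 arrays, 1 array stood apart from the other 3 for 3 of 71 genes checked, by the gap to its nearest neighbour over the whole range, past Dixon's limit for 4 samples. These were EPB41L2 at 0.884, KRT8 at 0.871 and IFI27 at 0.840. Chance alone sets apart about 1 in 20 groups. In none of them did the array cross to the MDA-MB-468 side. For EPB41L2 and IFI27 the rule for the largest differences required this, so it adds no result.

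The line difference with the EZH2 shRNA departed from that of the scrambled controls for 20 of the same 71 genes, which are those of the lineage panel, the oncogene and loss panel and the largest differences. This was tested as a contrast of contrasts in limma, against the mean of HCC70 sets a and b, and 14.2% of all genes passed. Of 207 named genes in the panels, lists and largest differences 73 passed. Many of these genes were chosen for large scrambled-control differences, and the contrast subtracts those same differences. That choice favours changes toward a smaller difference, so these counts cannot be set against the share of all genes. Since the contrast does not count the spread between the sets, it was repeated against each set alone, an alternative chosen after seeing the data. Of the 71 genes 13 then passed against both sets in the same direction, as did 6.99% of all genes, with the same limit on setting them side by side.

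Among those 13 the change was upward, toward HCC70, for NT5E (1.59), CRISP3 (1.32), FGFR2 (1.17), OLFML3 (1.17), FSTL1 (0.75), ZFP42 (0.74), IFI27 (0.70) and CDH3 (0.63). It was downward for KIT (-2.14), DMBT1 (-1.54), PROM1 (-1.02), CXCL17 (-0.88) and CEACAM6 (-0.81). The other 7 did not pass against 1 of the sets. TXNIP changed by 0.78, but by 0.31 against set a (adjusted p = 0.171), FADS2 by -0.56 but -0.12 (0.650), EPB41L2 by 0.53 but 0.49 (0.0532) and IFI16 by 0.48 but 0.40 (0.0753). Against set b IFI44L, at 1.02, gave 0.54 (adjusted p = 0.132), GBP6, at -0.56, gave -0.23 (0.429) and KRT14, at -0.42, gave -0.052 (0.823).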

How the results depend on the processing

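The alternatives were checked for the 207 named genes of the panels, lists and largest differences. Among these the direction of every called gene held under each alternative run. The number of called clusters, 6045 in the reported fit, was 9292 without the random block (4122 higher), 11198 with 8 group means on 16 arrays (5197 higher and 6001 lower), 10874 with set a alone (4922 and 5952) and 10355 with set b alone (4700 and 5655). The fits with 8 group means or with 1 set do not count the difference between sets a and b as error. Other floors, scalings, priors and the added empty vector arrays gave 5086 to 8436 calls. Leaving out 1 array gave 4282 to 6725, with 1750 to 2731 higher, 2532 to 3994 lower and 567 to 633 of at least 4-fold. The lowest of each came without MDA-MB-468 replicate 2. Between the lines with the EZH2 shRNA 9168 to 9884 clusters were called in the same way (4143 to 4581 higher and 4963 to 5303 lower), and 7779 from those 4 arrays alone.

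With the replicate number as a block 5051 clusters were called between the scrambled controls and 10267 between cells with the EZH2 shRNA. The numbers name samples and do not pair them, and this block changed no direction of a called gene. Among the named genes it ended the calls of GATA3 (adjusted p = 0.0716), LTF (0.0563), MDM2 (0.0611), NF1 (0.0634) and SUZ12 (0.0518).

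Genes that were not called changed sign in places. With set b alone the differences were DUSP6 0.45, FN1 0.37, INPP4B -0.065, IRF1 0.39, MYC 0.26, STK11 -0.019 and TGFBR2 0.27. With set a alone they were IFIH1 -0.079, KRT15 0.12 and PROM1 -0.069. With the empty vector arrays added they were IRF1 0.064, MYC 0.0076 and TGFBR2 0.053. Quantile normalization gave IRF1 0.014 and TGFBR2 0.078, and median centring gave INPP4B -0.013. Leaving out 1 array gave ranges of -0.036 to 0.11 for INPP4B, -0.19 to 0.034 for IRF1 and -0.074 to 0.026 for TGFBR2. The cause was not tested.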

Other observations

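Zinc finger genes named ZNF on chromosome 19, a grouping chosen after their values were seen, were lower in HCC70 for 105 of 162 tested and higher for 1. Their median difference was -0.92, with median levels of 6.21 in HCC70 and 7.10 in MDA-MB-468. Other genes of chromosome 19 had a median difference of 0.02, with 74 higher and 121 lower of 685. ZNF genes on other chromosomes had a median of -0.17, with 25 higher and 54 lower of 172. In cells with the EZH2 shRNA the median of the chromosome 19 ZNF genes was -0.46. Many of these genes are close relatives in sequence, and probes may not tell them apart.

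Runs of at least 3 adjacent tested genes that were all called at 4-fold or more in 1 direction, a rule also set after the values were seen, numbered 10 and held 36 genes. In 2 runs HCC70 was higher. One lay on chromosome 16 and held ROGDI (2.497), GLYR1 (4.65), UBN1 (3.85) and PPL (3.41), the desmosomal protein periplakin. The other held the serpins SERPINB5 (3.60), SERPINB4 (4.75) and SERPINB3 (4.34) on chromosome 18. In 8 runs HCC70 was lower. They included PCCA (-4.38), TMTC4 (-3.19) and the sodium leak channel NALCN (-2.37) on chromosome 13, LCA5 (-3.002), SH3BGRL2 (-4.34) and the fatty acid elongase ELOVL4 (-3.64) on chromosome 6, and SFRP1 (-4.65), GOLGA7 (-2.16) and the replication helicase subunit GINS4 (-2.15) on chromosome 8. A run of 7 ZNF genes on chromosome 19, from ZNF253 (-2.01) to ZNF626 (-3.06), was lower in HCC70 as well.

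Of the 18 clusters called in opposite directions in the scrambled controls and in cells with the EZH2 shRNA, 14 had 1 symbol. Beside IGFBP5 they held the basement membrane laminin subunit LAMB1 (-1.13 with scrambled shRNA and 0.27 with the EZH2 shRNA), the keratin KRT4 (0.53 and -1.30) and the BMP ligand BMP2 (-0.84 and 0.35).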
